A study of Mus musculus with 16 samples.

Results

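The 7 CXC chemokine genes described here, Cxcl1, Cxcl2, Cxcl5, Cxcl9, Cxcl10, Cxcl11 and Cxcl16, were picked by symbol as ligands that colon epithelium can make, out of 18850 genes with a probe set on the arrays. They were chosen with earlier results of these data known. Each was represented by its brightest probe set, and each had only 1. RNA came from mouse colon organoids, cultured epithelial structures kept in a medium with EGF, Noggin and R-spondin, on 16 single-colour Affymetrix arrays, with 4 arrays in each of 4 groups. The groups were ATF2/7 mutant organoids with TNFa (tumour necrosis factor, recombinant mouse protein at 50 ng/ml for 12 h), ATF2/7 mutant organoids without it, wild-type (WT) organoids with TNFa, and WT organoids without it. The mutant organoids carry altered alleles of both Atf2 and Atf7, which encode related transcription factors. The genotype label reads ATF2 fl/fl / ATF7 KO, whereas the sample description and the design text put the knockout on ATF2 and the floxed allele on ATF7. No label names a Cre driver, a recombination step, a strain or an age, or says whether the numbered replicates came from separate animals or cultures. The p-values below therefore measure only the spread between these arrays, which may be technical.

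CXC chemokines are small proteins that recruit leukocytes through receptors on those cells, and epithelium makes several of them when it meets microbial products or cytokines. Cxcl1, Cxcl2 and Cxcl5 act through Cxcr2 and draw neutrophils. Cxcl9, Cxcl10 and Cxcl11 act through Cxcr3 on T cells and natural killer cells and are classically induced by interferons, often together with NF-kB, the transcription factor family that TNFa activates. Cxcl16 is made as a membrane protein, binds Cxcr6 on lymphocytes, and is shed by the protease Adam10.

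In RefSeq's GRCm38.p6 annotation, 6 of the 7 genes lie on chromosome 5 in 2 runs, which is used here only for which genes neighbour each other. In the first run Cxcl5 is followed by Ppbp, Pf4, Cxcl3 and Cxcl15, and then by Cxcl1 and Cxcl2 with no gene between them. In the second run Cxcl9 is followed by Art3, Cxcl10 and Cxcl11. Cxcl16 lies apart from these, on chromosome 11. RefSeq annotates Cxcl11 as a transcribed pseudogene in this assembly, which represents the C57BL/6J strain. The array nonetheless measured its transcript, and the organoids' strain is not in the labels.

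The promoters of 4 members were found by symbol in RefSeq's GRCm38.p6 set, and they are shown because TNFa acts through NF-kB, whose motif letters can be looked for there. Each sequence runs 5′ to 3′ on the gene's own strand, from 250 bases before the start to 50 bases after it. Capitals mark every match, on either strand, to an open form of the NF-kB motif, 3 G, then any 5 bases, then 2 C.
Cxcl1, chr5:90890995-90891294, plus strand: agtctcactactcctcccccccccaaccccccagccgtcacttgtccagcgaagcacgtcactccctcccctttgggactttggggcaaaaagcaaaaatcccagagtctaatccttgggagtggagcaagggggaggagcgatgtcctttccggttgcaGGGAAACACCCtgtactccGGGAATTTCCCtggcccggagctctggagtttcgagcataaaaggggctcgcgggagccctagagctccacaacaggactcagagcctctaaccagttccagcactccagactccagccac
Cxcl2, chr5:90903649-90903948, plus strand: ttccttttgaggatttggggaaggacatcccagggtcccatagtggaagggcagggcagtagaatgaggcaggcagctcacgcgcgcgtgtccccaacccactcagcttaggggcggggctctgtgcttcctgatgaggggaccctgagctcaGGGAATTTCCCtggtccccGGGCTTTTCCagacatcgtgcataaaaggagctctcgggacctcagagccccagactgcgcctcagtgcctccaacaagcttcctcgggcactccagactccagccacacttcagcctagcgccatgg
Cxcl9, chr5:92328030-92328329, minus strand: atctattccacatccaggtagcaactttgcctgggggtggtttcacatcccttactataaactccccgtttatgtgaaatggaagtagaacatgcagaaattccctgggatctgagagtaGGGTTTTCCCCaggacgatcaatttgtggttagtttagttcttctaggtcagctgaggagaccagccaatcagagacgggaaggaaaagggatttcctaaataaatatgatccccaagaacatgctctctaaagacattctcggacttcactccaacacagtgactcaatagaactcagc
Cxcl10, chr5:92348840-92349139, minus strand: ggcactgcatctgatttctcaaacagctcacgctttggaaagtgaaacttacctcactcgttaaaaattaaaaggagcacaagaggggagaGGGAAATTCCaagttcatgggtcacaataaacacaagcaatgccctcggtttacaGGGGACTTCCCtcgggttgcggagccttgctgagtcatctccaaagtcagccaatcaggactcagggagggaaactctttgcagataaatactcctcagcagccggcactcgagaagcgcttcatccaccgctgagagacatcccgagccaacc
The capitals form 2 stretches in Cxcl1, 2 in Cxcl2, 1 in Cxcl9 and 2 in Cxcl10. This open motif was also present in 50.8% of 32851 promoters of the same length, so a match is common. The stricter standard NF-kB consensus, present in 4.51% of those promoters, matched in Cxcl1, Cxcl2 and Cxcl10. Cxcl1 and the neighbouring Cxcl2 carry the same letters for it, gggaatttccc, from base -71 to -61 and from base -97 to -87 relative to the start. Cxcl10 has 2 strict stretches, at -159 to -150 and at -103 to -94, both inside its capitals. Cxcl10 also matched a core form of the interferon-stimulated response element, TTTC, then any 2 bases, then TTTC, once on the opposite strand from -213 to -204. That motif was found in 3.44% of promoters, and the other 3 members shown had no match. The AP-1 motif TGANTCA, found in 7.81% of promoters, matched once in Cxcl9, from base 32 to 38 after the start, and once in Cxcl10, from -74 to -68. Neither TGACGTCA, the motif bound by ATF2 and related factors and found in 1.79% of promoters, nor TTCNNNGAA, a STAT motif found in 8.30%, was present in these 4 windows. All motifs were searched on both strands, a strict NF-kB match lies within an open one, and a match describes letters only.

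Array medians ran from 7.02 to 7.11 log2, with the highest on WT with TNFa replicate 2. Over all probe sets its correlation with the rest of its group averaged 0.989, against 0.993 for each of the other 3. For the 5 chemokines tested, the WT rises with TNFa are also given without it below, while other genes are given with it only. Among cell type markers, 9 of 9 measured genes of colon epithelium, the labelled tissue, were above their array's 40th percentile on all 16 arrays. Epcam and Krt8 were among these. The 4 endothelial genes were above it on none. Of 6 measured fibroblast and smooth muscle genes, Col1a1 was above it on all 16 arrays, and 4, among them Col3a1, on none. Of 8 measured immune genes, Lyz2 and Cd14 were above it on all 16 arrays, and 4, among them Cd3e and Adgre1, on none. The mean of these 8 genes was 6.68 to 6.89 log2 in mutant organoids with TNFa, 6.60 to 6.75 in mutant organoids without it, 6.60 to 6.68 in WT organoids with TNFa and 6.57 to 6.76 in WT organoids without it. Within that mean Cd14 and Lyz2, which epithelium can also express, differed between the groups, as values without a test. Cd14 averaged 9.42 log2 in mutant organoids with TNFa, against 8.92 without it, and 9.63 in WT organoids with TNFa, against 9.07 without it. Lyz2 averaged 8.83 in mutant organoids with TNFa, against 8.45 without it, but 7.58 in WT organoids with TNFa, against 8.32 without it. The part of these genes in the chemokine values was not tested. The Atf2 probe set read 10.10 to 10.13 log2 in mutant organoids with TNFa and 10.15 to 10.20 in WT organoids with TNFa (difference -0.06, SE 0.06, adjusted p = 0.729, limma). Without TNFa it read 10.12 to 10.18 in mutant organoids and 10.03 to 10.33 in WT organoids (difference -0.02, adjusted p = 0.942). The labels and annotation used here do not say which exons it covers, so it does not check the alleles. No probe set carried the symbol Atf7 in the annotation used here, so its level is not given.

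Signals are log2 values computed by the authors with RMA, a method that corrects background, normalizes arrays to each other and summarizes probes. A gene was tested if it was above the array's 40th percentile, which lay at 6.40 to 6.56 log2, on at least 4 of 16 arrays. A group mean below 6.56 is called dim here, since a fold change against it is approximate. Cxcl16 was above the percentile on all 16 arrays. Cxcl2, Cxcl9 and Cxcl11 were above it on 10 arrays and Cxcl10 on 8, which for Cxcl10 were exactly the arrays with TNFa. Those 4 genes thus entered the test mainly through the arrays where they were high. Cxcl1 and Cxcl5 were above the percentile on no array and were not tested, so their values are descriptions. Levels are compared only within a gene, since probe sets differ in brightness. In these bulk samples fewer cells of a type and less RNA per cell cannot be told apart.

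**Figure D1:**
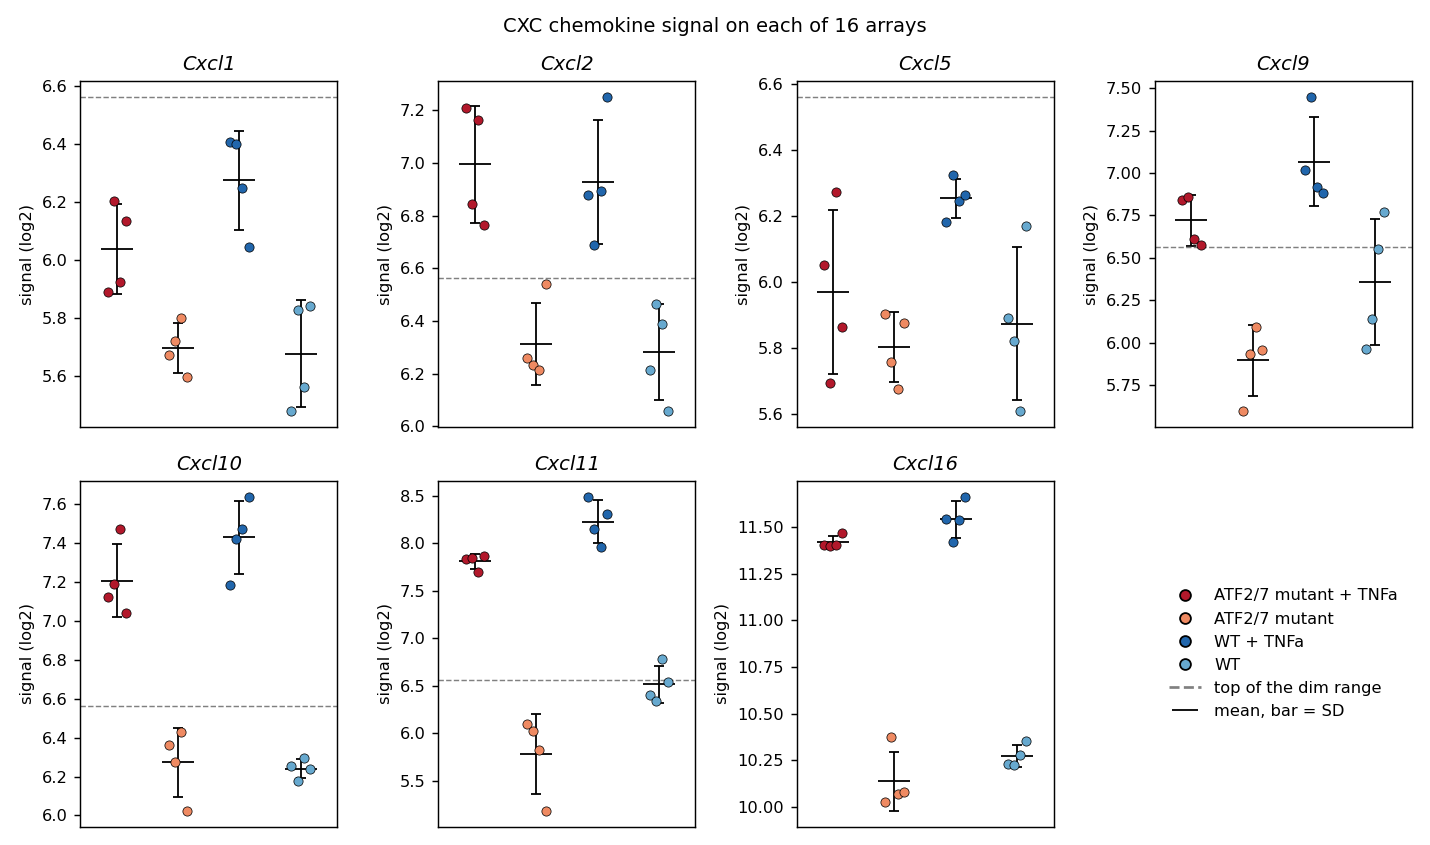
Signal of each CXC chemokine (log2, vertical axis, each panel with its own range) on the 16 arrays, by group; points are arrays, the horizontal line is the mean and the bar the SD of 4 arrays. The dashed line at 6.56 is the top of the dim range: only Cxcl16 lay above it in every group, and Cxcl1 and Cxcl5 lay below it on all arrays.

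Among the neutrophil chemokines, Cxcl2 was higher with TNFa in both genotypes, by about the same amount. Its probe set, TC0500000850.mm.2, read 7.21, 6.85, 7.16 and 6.76 log2 in mutant organoids with TNFa, against 6.26, 6.23, 6.22 and 6.54 in mutant organoids without it. In WT organoids it read 6.88, 6.69, 6.89 and 7.25 with TNFa, against 6.22, 6.46, 6.39 and 6.06 without it. Every array with TNFa lay above every array without it, and the 2 genotypes overlapped under both conditions. The rise was 1.60-fold in mutant organoids (0.68 log2, SE 0.13, 95% interval 0.41 to 0.95, limma adjusted p = 0.0024) and 1.57-fold in WT organoids (0.65, SE 0.13, interval 0.38 to 0.92, adjusted p = 0.00254). Both means without TNFa, 6.31 ± 0.15 and 6.28 ± 0.18 (SD, n = 4 each, mutant and WT), were dim. Without WT with TNFa replicate 2, the lowest array of its group for this gene, the rise in WT was 0.73 log2.

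Cxcl1, a close relative of Cxcl2 that is encoded next to it, was dim on all 16 arrays. Its probe set, TC0500000848.mm.2, read 5.89, 6.20, 5.92 and 6.14 log2 in mutant organoids with TNFa, against 5.67, 5.72, 5.80 and 5.60 in mutant organoids without it. The WT arrays read 6.41, 6.40, 6.25 and 6.04 with TNFa, against 5.48, 5.83, 5.56 and 5.84 without it. The lowest array with TNFa, at 5.89, was above the highest array without it, at 5.84. The differences in means with TNFa were 0.34 log2 (1.27-fold) in mutant organoids and 0.60 log2 (1.51-fold) in WT organoids. In a fit to all 18850 genes with no filter on dim ones, the WT difference had an adjusted p of 0.00155 and the mutant difference an adjusted p of 0.107 (limma). The difference between those 2 TNFa effects had an adjusted p of 0.84 in that fit.

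Cxcl5, the third ligand of Cxcr2, was also dim throughout. Its probe set, TC0500000841.mm.2, read 6.05, 5.69, 6.27 and 5.86 log2 in mutant organoids with TNFa, against 5.90, 5.76, 5.68 and 5.88 in mutant organoids without it. The WT arrays read 6.18, 6.33, 6.25 and 6.26 with TNFa, against 5.89, 5.82, 5.61 and 6.17 without it. The arrays with and without TNFa overlapped in mutant organoids. In WT organoids they did not, but the nearest pair stood at 6.18 and 6.17. The differences in means were 0.17 log2 (1.12-fold) in mutant organoids and 0.38 log2 (1.30-fold) in WT organoids. Neither passed in the fit with no filter, at adjusted p of 0.717 and 0.0787.

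Among the Cxcr3 ligands, Cxcl11 showed the highest fold change with TNFa in both genotypes, from dim means without it. Its probe set, TC0500002757.mm.2, read 7.84, 7.84, 7.70 and 7.87 log2 in mutant organoids with TNFa, against 6.10, 6.02, 5.82 and 5.18 in mutant organoids without it. In WT organoids it read 8.50, 8.16, 7.96 and 8.31 with TNFa, against 6.40, 6.34, 6.78 and 6.54 without it. Arrays with and without TNFa were far apart in both genotypes, and mutant arrays lay below WT arrays under both conditions. Cxcl11 rose 4.09-fold in mutant organoids (2.03 log2, SE 0.16, 95% interval 1.69 to 2.37, adjusted p = 2.33e-07). It rose 3.28-fold in WT organoids (1.71 log2, SE 0.16, interval 1.37 to 2.05, adjusted p = 1.57e-06). Ordered from the highest rise down, Cxcl11 ranked 9 of 11766 tested genes in mutant organoids and 15 in WT organoids. Without WT with TNFa replicate 2 the WT rise was 1.74 log2.

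Cxcl10, encoded beside Cxcl11, was above the dim range only with TNFa. Its probe set, TC0500002756.mm.2, read 7.13, 7.19, 7.47 and 7.04 log2 in mutant organoids with TNFa, against 6.36, 6.28, 6.43 and 6.02 in mutant organoids without it. The WT arrays read 7.19, 7.42, 7.47 and 7.64 with TNFa, against 6.26, 6.18, 6.29 and 6.24 without it. The groups with and without TNFa were separated by a wide gap, while the genotypes overlapped. The rise was 1.91-fold in mutant organoids (0.94 log2, SE 0.11, 95% interval 0.71 to 1.16, adjusted p = 1.41e-05) and 2.28-fold in WT organoids (1.19, SE 0.11, interval 0.97 to 1.41, adjusted p = 7.65e-07). The WT rise was also 1.19 log2 without WT with TNFa replicate 2.

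Cxcl9, the remaining Cxcr3 ligand, had the widest spread between WT arrays without TNFa of these 3 genes. Its probe set, TC0500002755.mm.2, read 6.84, 6.86, 6.61 and 6.57 log2 in mutant organoids with TNFa, against 5.60, 5.94, 6.09 and 5.96 in mutant organoids without it. In WT organoids it read 7.01, 7.45, 6.92 and 6.88 with TNFa, against 5.96, 6.14, 6.55 and 6.77 without it. Within each genotype the arrays with TNFa were higher, but 2 mutant arrays with TNFa lay below the highest WT array without it. The rise was 1.77-fold in mutant organoids (0.83 log2, SE 0.16, 95% interval 0.48 to 1.17, adjusted p = 0.0036) and 1.64-fold in WT organoids (0.71, SE 0.16, interval 0.37 to 1.05, adjusted p = 0.00744). Without WT with TNFa replicate 2, the highest array of its group here, the WT rise was 0.58 log2 (adjusted p = 0.0223).

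Cxcl16, the membrane-bound ligand of Cxcr6, was bright in every group and had the smallest SE of the tested members. Its probe set, TC1100003097.mm.2, read 11.41, 11.40, 11.41 and 11.47 log2 in mutant organoids with TNFa, against 10.02, 10.37, 10.07 and 10.08 in mutant organoids without it. In WT organoids it read 11.54, 11.42, 11.54 and 11.66 with TNFa, against 10.23, 10.22, 10.28 and 10.35 without it. The lowest array with TNFa, at 11.40, was far above the highest without it, at 10.37, and the genotypes overlapped with and without TNFa. Cxcl16 rose 2.44-fold in mutant organoids (1.28 log2, SE 0.07, 95% interval 1.13 to 1.44, adjusted p = 2.98e-09) and 2.41-fold in WT organoids (1.27, SE 0.07, interval 1.12 to 1.42, adjusted p = 7.61e-09). It had the smallest p of the 5 tested members in both genotypes. The WT rise was 1.31 log2 without WT with TNFa replicate 2.

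All 5 tested members thus passed the test as higher with TNFa in both genotypes, at an adjusted p under 0.05. In the background of 11766 tested genes, 3.51% rose and 2.47% fell with TNFa in mutant organoids, and 5.03% rose and 5.75% fell in WT organoids. In each genotype these 5 also had arrays with TNFa that did not overlap those without it, which held for 7.88% of tested genes in mutant organoids and 6.82% in WT organoids. Since 4 of the 5 had to be higher on some arrays to enter the test, the count describes the tested members and not the whole family. Cxcl16 needed no such condition. The members were also chosen with earlier results of these data known, so their count cannot be weighed against those shares.

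**Figure D2:**
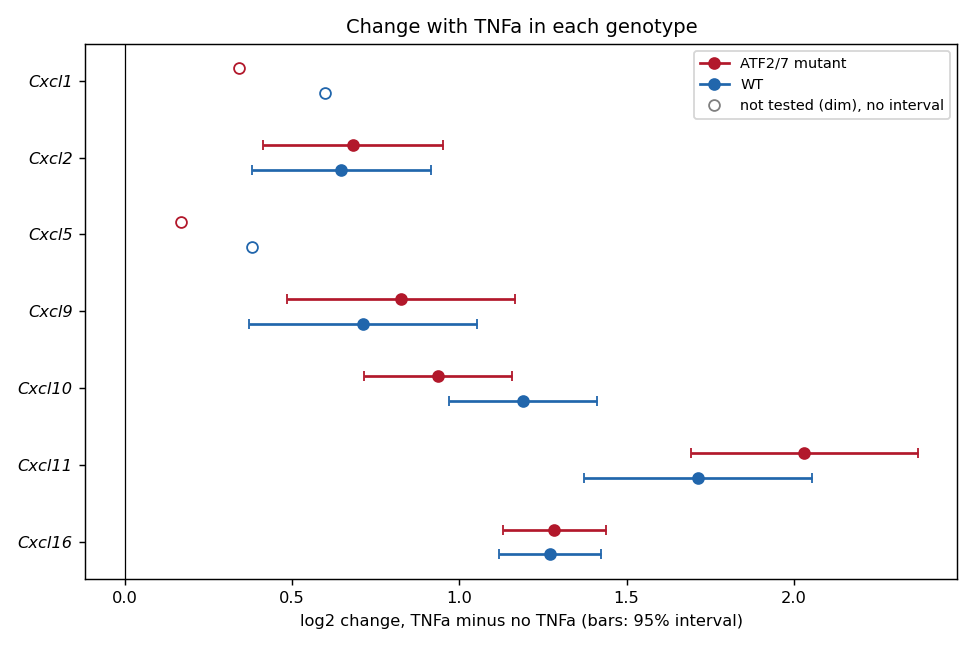
Change with TNFa (log2, TNFa minus no TNFa, horizontal axis) of each chemokine in ATF2/7 mutant organoids and in WT organoids; bars are 95% intervals of the fit, and open points were not tested. All intervals drawn lie above 0, and the intervals of the 2 genotypes overlap for each tested gene, with Cxcl11 at 2.03 in mutant and 1.71 in WT organoids.

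Between the genotypes without TNFa, Cxcl11 was the member that passed the test. It averaged 5.78 ± 0.42 log2 in mutant organoids and 6.52 ± 0.19 in WT organoids (SD, n = 4 each), 1.67-fold lower in the mutant (-0.74 log2, SE 0.16, 95% interval -1.08 to -0.40, adjusted p = 0.0177). Every mutant array was below every WT array, but both means were dim, and the lowest mutant array, at 5.18, was far from the others. The call was lost without WT replicate 3 (-0.65, adjusted p = 0.0652), without WT replicate 4 (-0.73, adjusted p = 0.0537), and when only these 2 groups were fitted (adjusted p = 0.0691). Across tested genes, 1.48% were called lower and 1.00% higher in mutant organoids without TNFa, and 5.88% had mutant arrays all below the WT arrays. Of the 5 tested members, 1 was called and 1 had such separated groups.

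The other members did not pass without TNFa. Cxcl9 averaged 5.90 ± 0.21 log2 in mutant organoids and 6.36 ± 0.37 in WT organoids, with overlapping arrays (-0.46, 95% interval -0.80 to -0.12, unadjusted p = 0.0112, limma adjusted p = 0.185). Cxcl16 averaged 10.14 ± 0.16 in mutant organoids and 10.27 ± 0.06 in WT organoids (-0.13, interval -0.29 to 0.02, adjusted p = 0.451). Without mutant replicate 2, at 10.37 the highest array of its group, that difference was -0.21 (adjusted p = 0.117). Cxcl2 and Cxcl10 each differed by 0.03 log2, with intervals from -0.24 to 0.30 and from -0.19 to 0.25. The dim genes differed by 0.02 log2 for Cxcl1 and -0.07 log2 for Cxcl5.

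With TNFa no member passed the genotype test, although 3 of the 5 tested members, the Cxcr3 ligands, had lower means in mutant organoids at an unadjusted p under 0.05. Cxcl11 averaged 7.81 ± 0.08 log2 in mutant organoids and 8.23 ± 0.23 in WT organoids, 1.34-fold lower in the mutant (-0.42, SE 0.16, 95% interval -0.76 to -0.08, unadjusted p = 0.0188, limma adjusted p = 0.234). Cxcl9 averaged 6.72 ± 0.15 in mutant organoids and 7.07 ± 0.26 in WT organoids (-0.35, interval -0.69 to -0.0045, unadjusted p = 0.0473, limma adjusted p = 0.363). Cxcl10 averaged 7.21 ± 0.19 in mutant organoids and 7.43 ± 0.19 in WT organoids (-0.22, interval -0.45 to -0.0012, unadjusted p = 0.0489, limma adjusted p = 0.365). For Cxcl9 and Cxcl11 every mutant array was below every WT array, while Cxcl10 overlapped. Such separated groups, with the mutant lower, held for 4.62% of tested genes, and 1.56% of genes were called higher and 1.13% lower in mutant organoids with TNFa. An unadjusted p under 0.05 was found for 1601 of the 11766 genes in this comparison. Without WT with TNFa replicate 2 the Cxcl9 difference was -0.22 (adjusted p = 0.562) and the Cxcl11 difference -0.44 (adjusted p = 0.239).

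Cxcl16 averaged 11.42 ± 0.03 log2 in mutant organoids with TNFa and 11.54 ± 0.10 in WT organoids with TNFa (-0.12, 95% interval -0.28 to 0.03, adjusted p = 0.496). Cxcl2 averaged 6.99 ± 0.22 in mutant organoids and 6.93 ± 0.23 in WT organoids (0.07, interval -0.20 to 0.33, adjusted p = 0.875). The untested Cxcl1 averaged 6.04 ± 0.15 in mutant organoids with TNFa and 6.27 ± 0.17 in WT organoids with TNFa, a difference of -0.24. Cxcl5 averaged 5.97 ± 0.25 in mutant organoids and 6.25 ± 0.06 in WT organoids, a difference of -0.28. Both genes overlapped between the genotypes with TNFa. In the limma fit with no filter their unadjusted p was 0.0352 for Cxcl1 (adjusted p = 0.409) and 0.0285 for Cxcl5 (adjusted p = 0.377), and that of Cxcl10 was 0.0545 (adjusted p = 0.482). Lower means with TNFa in mutant organoids were thus not confined to the Cxcr3 ligands.

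**Figure D3:**
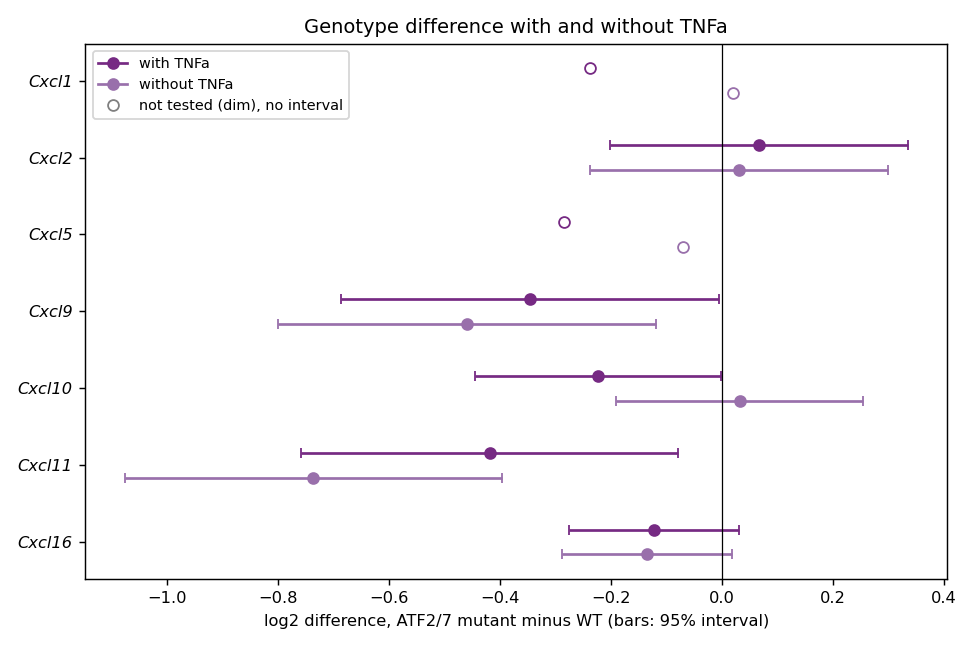
Genotype difference (log2, ATF2/7 mutant minus WT, horizontal axis) of each chemokine with TNFa and without TNFa; bars are 95% intervals of the fit, and open points were not tested. The points of Cxcl9, Cxcl11, Cxcl16 and the untested Cxcl5 lie left of 0 under both conditions. Only Cxcl11 without TNFa, at -0.74, passed after adjustment over all genes.

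Across the 4 groups, the order of the means was not the same for every chemokine. WT with TNFa was the highest group and mutant with TNFa the next for every member except Cxcl2, with both groups without TNFa below. That first step did not pass the test for Cxcl9, Cxcl10, Cxcl11 or Cxcl16, and was not tested for Cxcl1 and Cxcl5. For Cxcl2 the mutant with TNFa was the highest, 0.07 log2 above WT with TNFa, within the spread of both groups. Of the groups without TNFa, the mutant had the lower mean for Cxcl9, Cxcl11, Cxcl16 and Cxcl5, and the difference passed the test for Cxcl11. For Cxcl1, Cxcl2, Cxcl5 and Cxcl10 the groups without TNFa differed by less than their SDs and have no settled order. For Cxcl2 and Cxcl10 the sign turned when 1 array was left out, within -0.05 to 0.09 and -0.02 to 0.11.

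The difference between the TNFa effects of the 2 genotypes, mutant minus WT, was not called for any tested member (limma, 0 of 5, and 0 at an unadjusted p under 0.05). Cxcl11 had a mean effect 0.32 log2 higher in mutant organoids (95% interval -0.16 to 0.80, adjusted p = 0.816), which was 0.12 without mutant replicate 4, the array at 5.18. Cxcl10 had a mean effect that was lower in mutant organoids (-0.25, interval -0.57 to 0.06, adjusted p = 0.77). For Cxcl16 the difference was 0.01 (SE 0.10), for Cxcl2 0.03 (interval -0.34 to 0.41) and for Cxcl9 0.11 (interval -0.37 to 0.60). Leaving out each array in turn, the sign of these last 3 differences turned for at least 1 array, within -0.03 to 0.09 for Cxcl16, -0.05 to 0.14 for Cxcl2 and -0.02 to 0.25 for Cxcl9. Across all tested genes, 0.00850% passed in this comparison, which was 1 gene. The narrowest of these intervals, that of Cxcl16, ran from -0.20 to 0.23 log2.

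Other genes of the chemokine system were described from lists chosen with earlier results of these data known. Of all 11766 tested genes, 3.51% rose and 2.47% fell with TNFa in mutant organoids, and 5.03% rose and 5.75% fell in WT organoids. An unadjusted p under 0.05 (limma) was found for 1847 of them with TNFa in mutant organoids and 2769 in WT organoids. Between genotypes it was found for 1601 with TNFa and 1570 without it. The list counts were not tested against these shares. Of 29 other chemokines, 27 had a probe set and 15 were tested, and 4 rose with TNFa in both genotypes, with 0 falling. The median change over the 15 was 0.01 log2 in mutant organoids and 0.12 in WT organoids, against 0.01 in each over all tested genes. Ccl20, which attracts cells bearing Ccr6, rose 18.96-fold in mutant organoids and 17.7-fold in WT organoids. Ccl6 rose 1.70-fold in mutant and 1.32-fold in WT organoids, and Ccl9 rose 1.45-fold in mutant and 1.53-fold in WT organoids. Pf4, a CXC chemokine of platelets, rose 1.43-fold in mutant and 1.28-fold in WT organoids. Ccl6 was also higher in mutant than in WT organoids with TNFa (1.23-fold, adjusted p = 0.0297, limma), the opposite direction to the means of the Cxcr3 ligands. In that comparison 3 of the 15 had an unadjusted p under 0.05, namely Ccl6, Xcl1 and Ccl2. Xcl1 was higher in the mutant (0.25 log2, limma adjusted p = 0.363). Ccl2 was lower there, without overlapping arrays (-0.35 log2, limma adjusted p = 0.0732), and neither was called. Cxcl3, encoded between Cxcl5 and Cxcl1, was tested and not called with TNFa in mutant organoids (-0.03 log2, adjusted p = 0.951) or in WT organoids (0.12 log2, adjusted p = 0.57).

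Chemokine receptors were not called by limma in any of the 5 comparisons. Of 10 receptor genes 4 were tested, namely Cxcr3, Cxcr4, Ackr2 and Ackr3. Cxcr2 and Cxcr6, the receptors of other members described here, had a probe set but were not tested. An unadjusted p under 0.05 was found for 0 of them with TNFa in either genotype, 1 between genotypes with TNFa (Ackr3, a scavenging receptor, 0.29 log2, adjusted p = 0.0527) and 1 without TNFa (Cxcr4, 0.22, adjusted p = 0.239). Of 8 enzymes and proteoglycans that shed, cleave or bind CXC chemokines, 5 were tested. Mmp7, the matrix metalloproteinase matrilysin, rose 2.27-fold with TNFa in mutant organoids (adjusted p = 6.01e-04), against 1.51-fold in WT organoids (adjusted p = 0.0526). It was 1.67-fold higher in mutant than in WT organoids with TNFa (adjusted p = 0.0437), but the difference of its TNFa effects was not called (0.59 log2, adjusted p = 0.665). Sdc4, a heparan sulfate proteoglycan, rose 1.19-fold in mutant organoids (adjusted p = 0.0138). In WT organoids it changed by 0.09 log2 (limma adjusted p = 0.401), and the difference of its TNFa effects was not called (adjusted p = 0.727). Adam10, the sheddase of Cxcl16, changed by 0.04 log2 in mutant organoids and 0.0024 in WT organoids and was not called.

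Of 20 TNF receptor and NF-kB genes, 15 were tested, and 10 rose with TNFa in mutant organoids and 11 in WT organoids, with 0 falling. The shares of all tested genes that rose were 3.51% in mutant and 5.03% in WT organoids. The median change was 0.49 log2 in mutant organoids and 0.54 in WT organoids, against 0.01 in each over all tested genes. Tnfaip3, which encodes A20, an inhibitor of NF-kB signalling, rose 3.65-fold in mutant organoids and 3.83-fold in WT organoids. Nfkbia, which encodes the inhibitor IkBa, rose 2.78-fold in mutant and 2.49-fold in WT organoids. Nfkb2 and Relb encode subunits of the non-canonical pathway. Nfkb2 rose 2.22-fold in mutant and 2.05-fold in WT organoids, and Relb 1.60-fold in mutant and 1.46-fold in WT organoids. Bcl3, Traf2, Tnfrsf1b, Nfkbib, Nfkbiz and Rel rose in both genotypes by 1.18-fold to 1.91-fold, and Map3k7 was called in WT organoids only, without a called difference between genotypes. With TNFa 0 of the 15 differed between genotypes in limma after adjustment, and 3 at an unadjusted p under 0.05. Over all 11766 tested genes, 1.56% were called higher and 1.13% lower in the mutant there, and 1601 had such an unadjusted p. Without TNFa Nfkbiz, an atypical NF-kB regulator, was 1.22-fold higher in mutant than in WT organoids (adjusted p = 0.0231). It was the 1 call among the 15 in that comparison, where 1.00% of all tested genes were called higher and 1.48% lower.

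Of 20 interferon regulators of Cxcl9, Cxcl10 and Cxcl11, 16 were tested. Irf1, a transcription factor of interferon responses, rose 1.54-fold in mutant organoids and 1.56-fold in WT organoids with TNFa. Ifngr2, a chain of the interferon gamma receptor, rose 1.15-fold in mutant organoids. In WT organoids it was higher by 0.09 log2, without overlapping arrays, and was not called (limma adjusted p = 0.238). In WT organoids Irf7 rose 1.37-fold (adjusted p = 0.0466) and Irf8 fell 1.27-fold (adjusted p = 0.012), both with overlapping arrays. In mutant organoids neither was called, though both moved the same way. Irf7 changed there by 0.32 log2 (limma adjusted p = 0.269) and Irf8 by -0.19 log2 (adjusted p = 0.276). The difference of the TNFa effects was not called for any of the 16. The median over the 16 was 0.07 log2 in mutant organoids and 0.01 in WT organoids. None of the 16 was called between genotypes in limma, where 2 with TNFa and 1 without it had an unadjusted p under 0.05. Over all 11766 tested genes, 1601 with TNFa and 1570 without it met that unadjusted threshold.

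Of 8 genes that act on chemokine mRNA stability, all were tested and 2 rose in both genotypes. Zc3h12a, an RNase that degrades inflammatory mRNAs, rose 1.92-fold in mutant organoids and 1.72-fold in WT organoids, and Traf3ip2, the Act1 adaptor of IL-17 receptors, rose 1.25-fold in each. Of 13 other cytokine, cytokine receptor and related genes, 8 were tested. Of these 3 rose in both genotypes, and 2 fell in mutant organoids and 3 in WT organoids. The shares beside both lists, over all tested genes, were 3.51% rising and 2.47% falling in mutant organoids. In WT organoids they were 5.03% rising and 5.75% falling. Il1a rose 6.94-fold in mutant and 3.62-fold in WT organoids, from dim means. Tnf itself rose 5.02-fold in mutant and 3.33-fold in WT organoids, and the growth factor gene Csf1 rose 3.51-fold in mutant and 4.41-fold in WT organoids. Il17re and Il18 fell in both genotypes by 1.16-fold to 1.46-fold. Il17rc fell 1.17-fold in WT organoids, and averaged 9.72 log2 with TNFa and 9.86 without it in mutant organoids, which was not called. The difference of the TNFa effects was not called for any tested gene of the list. Il1a, an upstream inducer of Cxcr2 ligands, was 1.57-fold higher in mutant than in WT organoids with TNFa (adjusted p = 0.0203), and the difference of its TNFa effects had an adjusted p of 0.275. In that genotype comparison 7 of the 8 tested genes of the list had an unadjusted p under 0.05 in limma, and Il1a alone was called. The same unadjusted threshold was met by 1601 of all 11766 tested genes. Il17ra (0.27 log2), Il17rc (0.15) and Il17re (0.26) had higher means in mutant organoids, and Il18 (-0.16), Csf1 (-0.35) and Csf3 (-0.20) lower ones, at adjusted p of 0.199 to 0.364.

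**Figure D4:**
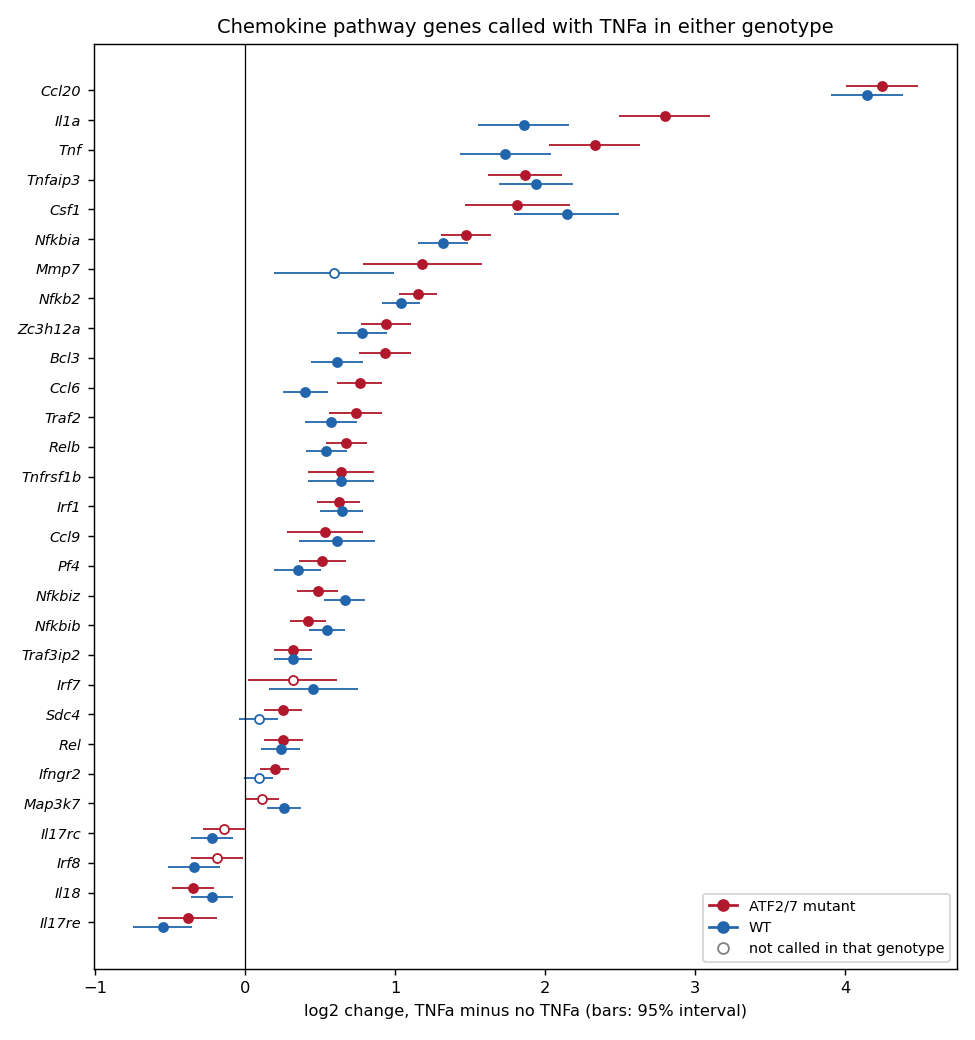
Change with TNFa (log2, TNFa minus no TNFa, horizontal axis) of the chemokine system genes that were called in at least 1 genotype; bars are 95% intervals of the fit, and open points were not called in that genotype. Ccl20, at 18.96-fold in mutant and 17.7-fold in WT organoids, lies far to the right of the rest, and the few genes left of 0 include Il17re and Il18.

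The genes whose profiles over the 16 arrays were most like each called member were found by the root mean square difference in log2 after each gene was centred on its own mean, as a description. For Cxcl2 they were Irf1 (0.15 log2), Bcl3 (0.15) and Nav2 (0.15), and for Cxcl10 they were Guca2a (0.14), Itgb6 (0.16) and Nfkb2 (0.17). For Cxcl16 they were Mapk11 (0.15), Itgb6 (0.16) and Guca2a (0.16), so that Itgb6, an integrin subunit, and Guca2a, the gut peptide guanylin, were near both. Cxcl11 stood farther from its nearest genes, Tnf (0.33), Gsap (0.33) and Tnfaip3 (0.34). Cxcl9 had Ier3 (0.25), Ly6d (0.25) and AW112010 (0.26). No member was among the 3 nearest genes of another member.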

How the data were processed

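The authors computed the deposited log2 signals with RMA in Affymetrix Expression Console, per the submitters' processing notes. Tool versions, array design and genome build are not given in the sources used here. Per the labels' protocols, 400 ng of total RNA was amplified and labelled with biotin. Of 19825 probe sets, 18851 carried 1 gene symbol in the platform annotation, 974 none and 0 several. Of the 18850 genes these named, 11766 passed the filter and 7084 did not. The values were not normalized again.

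The 4 group means were compared with limma 3.58.1 in R 4.3.3, in 1 fit to 16 arrays, with Benjamini-Hochberg adjustment over all tested genes (two-sided, called under 0.05). A fold change is 2 raised to the difference of log2 means, SE is from the fit, SD is between 4 arrays, and intervals cover 95%. The number of arrays limits the precision. The fits were tested on simulated data.

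The 7 members and the gene lists were chosen with earlier results of these data known. All members were named, as were list genes called in at least 1 comparison and the 3 genes most like each member called with TNFa. Adam10, Cxcl3, Ccl2, Xcl1, Il17ra, Csf3, Cd14, Lyz2, the receptors and Atf2 were added to these after their values were seen. Alternatives were another filter, other scalings, array weights, trend and robust fitting, fits of 2 groups, replicate blocks, and each array left out.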

Additional observations from a re-analysis of the deposited data

Results flagged for a closer look

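In groups of 4 arrays, a value stood apart where its gap to the next value, as a share of the group's range, was over Dixon's critical value. Chance gives this in about 1 of 20 groups, and it was found in 10 of 144 groups examined, over the 7 chemokines and the called genes of the lists. Among the chemokines, Cxcl2 on mutant replicate 4 without TNFa read 6.54 log2, against 6.26 for the next array. Cxcl11 on mutant with TNFa replicate 3 read 7.70, against 7.84. Cxcl16 on mutant with TNFa replicate 4 read 11.47, against 11.41, and Cxcl16 on mutant replicate 2 without TNFa read 10.37, against 10.08. Each of these 4 arrays stayed on its side of the gap between arrays with and without TNFa.

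Among the other genes, Mmp7 read 7.30 on mutant replicate 1 without TNFa, against 7.89 for the next array. Il17re read 8.01 on mutant with TNFa replicate 2, against 8.24. Irf1 read 9.15 on mutant with TNFa replicate 1, against 8.95, and 8.26 on mutant replicate 3 without TNFa, against 8.39. On mutant with TNFa replicate 4, Rel read 8.94, against 8.78, and Ifngr2 read 10.68, against 10.74. All 10 values belong to mutant arrays, 3 of them to mutant with TNFa replicate 4, and the cause was not tested.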

How the results depend on the processing

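Among recomputed values of single chemokines, 642 kept their side of the threshold and, where called, their direction, and 3 lost a call, all of Cxcl11 between genotypes without TNFa (adjusted p 0.0537 to 0.0691). Leaving out each array in turn, that difference ran from -0.84 to -0.54 log2. With a filter at the 60th percentile only 2 chemokines were tested and called with TNFa in each genotype, Cxcl11 and Cxcl16. The count of chemokines lower in mutant without TNFa, 1, was 0 with only the 2 groups fitted and 0 to 1 with an array left out. Over all genes, array weights gave 1095 calls for TNFa in mutant (against 704), 617 between genotypes with TNFa (against 317) and 443 without (against 292). Fits of only 2 groups gave 720 for TNFa in WT (against 1269) and 185 between genotypes with TNFa. With an array left out, the genotype count with TNFa ran from 191 to 339, and was lowest without mutant with TNFa replicates 1 (191), 4 (197) or 2 (209). The difference of TNFa effects, 1 gene, had 3 with array weights, 3 with the 60th percentile, 5 with trend and robust fitting, and 0 to 4 with an array left out. Centring arrays on their medians gave 449 up and 775 down for TNFa in WT, against 592 and 677, while the chemokine calls stayed.

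Whether replicate numbers pair the samples is not in the labels. Deviations of same-numbered arrays from their group means correlated at -0.31 to 0.25. Such values cannot show whether these arrays share an animal or culture. With the number as a replicate block, within genotype or across groups, the difference of TNFa effects had 0 genes in both. The other counts moved by less than 1.5 times, and 5 chemokines were called with TNFa in each genotype. Dim signal limits Cxcl1, Cxcl5 and all fold changes from the dim range.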
